A study of Mus musculus with 5 samples.

Results

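Type 1 conventional dendritic cells (cDC1) were examined in 5 droplet single-cell RNA libraries of white blood cells from mouse B16-F10 tumors, a melanoma line grown under the skin. Members were chosen by unique molecular identifiers (UMIs), each of which stands for 1 captured transcript. A barcode needed at least 2 UMIs of Xcr1 and Clec9a together, at most 2 of C1qa, C1qb and C1qc together, and 0 of each of Fscn1, Siglech, Cd3e, Cd3d, Cd3g, Ncr1 and Cd79a, with at most 10% of its UMIs from mitochondrial genes. The gate held 423 of 37074 barcodes kept: 126 of 5945 under PBS, 141 of 7292 under anti-PD1, 70 of 6687 under IL15 superagonist, 54 of 8493 under the combination and 32 of 8657 under the fusion. These counts chose the members, so levels of Xcr1 and Clec9a in the gate, and any contrast of the gate with other cells, are descriptions.

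Each library stands for 1 treatment. The mice received saline (PBS), an antibody against the inhibitory T-cell receptor PD-1 (anti-PD1), an IL15 superagonist, that superagonist together with anti-PD1 (combination), or a protein in which anti-PD1 and IL15 are fused (fusion). The library title of the combination names the superagonist and its treatment tag names IL15. Every mouse carried a B16-F10 tumor begun with 500000 cells and removed on day 11, from which live CD45-positive cells were sorted, and about 16000 cells were loaded per library. The labels write the treatment step after the removal of the tumor, so the time between treatment and sampling is not known here. Strain, age, sex, dose and the number of mice per library are not stated in the labels. With 1 library per treatment there was no replicate and no test between treatments, and 95% intervals in parentheses cover counting error only. A series of 5 values starts with PBS, goes on with anti-PD1 and then IL15 superagonist, and ends with combination before fusion.

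Conventional dendritic cells of type 1 take up material from dying cells and present its antigens on MHC class I to CD8 T cells, a route called cross-presentation. The lineage depends on the transcription factors Irf8 and Batf3 and on the growth factor receptor Flt3. Xcr1 is the receptor for the chemokine Xcl1 made by NK cells and CD8 T cells, Clec9a binds actin exposed on dead cells, Wdfy4 is needed for cross-presentation of cell-bound antigen, and Naaa is a lysosomal lipid amidase. In tumors these cells are known as a source of interleukin 12 and of the chemokines Cxcl9 and Cxcl10, which attract T cells. Interferon-gamma and type I interferon act on them, and many promoters of their target genes hold GAS or ISRE sites.

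Promoters of 4 genes are shown because interferon genes and Serpinb9, an inhibitor of granzyme B, set libraries or groups of members apart in the results that follow. Each run is the 300 bases from 250 before to 50 after a transcript start, read 5′ to 3′ along the gene's strand, from RefSeq on GRCm38.p6. Capitals mark matches to the GAS letters TTCNNNGAA or to the ISRE core, which is GAAA, any 2 bases and GAAA, both searched on both strands. The windows lie at chr3:142620413-142620712, plus strand, for Gbp2, at chr4:156200769-156201068, minus strand, for Isg15, at chr11:53769764-53770063, plus strand, for Irf1, and at chr13:33004291-33004590, plus strand, for Serpinb9.
Gbp2: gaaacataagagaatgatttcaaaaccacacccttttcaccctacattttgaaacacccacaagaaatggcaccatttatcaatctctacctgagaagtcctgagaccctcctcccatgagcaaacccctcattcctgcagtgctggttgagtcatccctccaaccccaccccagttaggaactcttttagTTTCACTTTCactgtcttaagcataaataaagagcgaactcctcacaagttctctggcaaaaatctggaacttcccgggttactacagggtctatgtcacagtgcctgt
Isg15: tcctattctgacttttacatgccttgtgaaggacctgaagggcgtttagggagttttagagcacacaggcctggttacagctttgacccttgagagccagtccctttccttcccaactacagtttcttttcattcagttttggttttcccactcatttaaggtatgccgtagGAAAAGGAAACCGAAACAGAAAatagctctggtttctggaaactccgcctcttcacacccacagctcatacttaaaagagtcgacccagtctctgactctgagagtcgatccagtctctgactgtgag
Irf1: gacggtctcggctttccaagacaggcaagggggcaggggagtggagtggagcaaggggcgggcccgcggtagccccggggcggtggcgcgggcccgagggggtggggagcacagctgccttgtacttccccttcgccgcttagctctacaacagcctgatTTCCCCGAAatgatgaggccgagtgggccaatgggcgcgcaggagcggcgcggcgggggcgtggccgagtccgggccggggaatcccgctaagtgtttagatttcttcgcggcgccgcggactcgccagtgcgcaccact
Serpinb9: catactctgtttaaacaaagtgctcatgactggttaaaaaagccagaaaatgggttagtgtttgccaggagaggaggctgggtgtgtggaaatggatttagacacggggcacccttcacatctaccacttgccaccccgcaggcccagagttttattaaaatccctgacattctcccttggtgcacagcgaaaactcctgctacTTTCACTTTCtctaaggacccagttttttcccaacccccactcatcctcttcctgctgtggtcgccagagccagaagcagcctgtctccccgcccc
In Gbp2, which encodes an interferon-induced GTPase, an ISRE core began 59 bases before the start, and in Serpinb9 one began 46 bases before the start in the table. That Serpinb9 start lies inside the gene as GENCODE annotates it, from position 33003250 of chromosome 13. Isg15, a ubiquitin-like protein induced by interferon, held 3 ISRE cores at 78, 72 and 66 bases before the start that overlap one another. Irf1, a transcription factor of the interferon-gamma response, held a GAS match 90 bases before 1 of its starts in the table and no match at the other. The GAS and ISRE matches printed do not overlap. The promoters of Cxcl9, Il12b and Serpinb6b were searched too and held neither set of letters, while Cxcl10 held 1 ISRE core 213 bases before its start. GAS letters were in 8.30% and ISRE core letters in 3.44% of 32851 promoters of the table. Of 37 genes listed as interferon-gamma responders 26 were matched to the table, of which 13 held GAS and 11 the ISRE core. Of 36 type I interferon responders 27 were matched, of which 4 held GAS and 16 the ISRE core. These are counts of genes with a match at any of their starts, whereas the percentages are of promoters. Counted by promoter, 13 of 31 held GAS and 11 the ISRE core in the interferon-gamma list. In the type I list it was 4 and 18 of 33. A match is a description of these letters and not a measured binding site.

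Members held more UMIs than the kept barcodes in general. Their median UMIs were 9268.5, 10718, 12870.5, 12400.5 and 8209, beside 4518, 5687.5, 4302, 4956 and 7927 over all kept barcodes. Levels are summed UMIs of the members as CPM, counts scaled to the same total in every library, over 1297150, 1668757, 989177, 695913 and 299482 UMIs. The fusion members therefore carried the least precise values. Between 279 and 361 barcodes of a library also occurred in another library, and 8, 7, 2, 5 and 0 members lay on such barcodes. The PBS library stood apart in the cDC1, cDC2-like and T-cell gates alike: of 3486 genes measured in all 3 gates, 20 were higher in PBS than in every other library of all gates, among them Sod1 and Hnrnpa0, and 18 lower, among them Aldoa, Pgam1 and Cebpb. In anti-PD1 12 genes were higher in this way, among them Isg15 and Oasl2. In the fusion library, compared in the cDC1 and T-cell gates only, 11 genes were higher in this way, among them Aldoa, and 105 lower, among them Il1b, Gbp2, Cxcr4 and Cd40. How far differences between libraries outside the cDC1 gate account for differences within it was not tested.

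The label was checked with markers that the rule did not use. All 12 of Wdfy4, Naaa, Irf8, Batf3, Cadm1, Itgae, Tlr3, Ifi205, Cd24a, Snx22, Ppt1 and Rab7b were detected in the members of every library, with summed levels of 5269, 4969.6, 6121, 5048 and 6067 CPM. Wdfy4 stood at 636, 409, 445, 401 and 291 CPM and Naaa at 1200.3, 1055, 1291, 1062 and 1109 CPM in the members, against at most 3.1 and 20.6 CPM in a gate of T cells. T-cell markers Trac, Trbc2 and Cd8b1 summed to 2.40 to 4.04 CPM. The 4 NK markers Klrb1c, Nkg7, Gzma and Prf1 summed to 28.5, 5.99, 12.1, 11.5 and 30.1 CPM, with Klrb1c at 0 in every library. Of 5 macrophage markers outside the rule 3 to 5 were detected, at 27.3 to 113.9 CPM in sum. The 6 monocyte markers summed to 1449, 1828, 626, 914 and 387 CPM, most of it Plac8. The 6 cDC2 markers summed to 197, 311, 164, 322 and 270.5 CPM, and the 5 mature dendritic cell markers to 177, 276, 156, 279 and 371 CPM. In fusion Mgl2 made 177 CPM of the cDC2 sum, while Cd209a stood at 3.3 CPM against 100.2 CPM in PBS. Of a longer cDC2 list 2 of 12 measured genes were higher and 9 lower in fusion than in PBS, beside 16.8% and 21.6% over all genes. Ccr7 made 257 CPM of the mature sum in fusion, with 53 of 77 UMIs from 1 member, and Il4i1 and Cacnb3 were at 0. The 4 B-cell markers summed to 76.8 to 133.6 CPM, nearly all of it Ighm.

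Near its threshold the gate took in cells with weaker identity. The 104 members with exactly 2 UMIs of Xcr1 and Clec9a had Wdfy4 at 257 CPM, Irf8 at 559 CPM and Cd209a, a cDC2 lectin, at 223 CPM. The 262 barcodes with 1 such UMI that met every other condition, just outside the gate, had Wdfy4 at 149.8 CPM, Irf8 at 439 CPM and Cd209a at 261 CPM. Over all 423 members the same genes stood at 467, 1158 and 70.1 CPM. Lyz2, a lysozyme of monocytes and macrophages, was at 2787 CPM just outside, 1085 CPM just inside and 765 CPM in all members.

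Xcr1 and Clec9a did not mark the same barcodes, and members with both differed from members with Clec9a alone. UMIs of both genes were seen in 77, 72, 50, 32 and 25 members, of Clec9a alone in 47, 68, 18, 20 and 7, and of Xcr1 alone in 2, 1, 2, 2 and 0. Clec9a alone was thus most frequent in anti-PD1 and least frequent in fusion. Median UMIs were 10160, 12674, 14731, 13770.5 and 8882 with both genes and 7818, 9232.5, 11325, 9878.5 and 6939 with Clec9a alone, so depth differed too, and its part in the split was not tested.

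Genes of the cDC1 lineage were higher where both rule genes were seen. Irf8, the lineage-defining factor, stood at 1248, 1549, 1476, 1529 and 1465 CPM in members with both genes and at 750.1, 501, 663, 356 and 706 CPM in those with Clec9a alone. Ppt1, a lysosomal thioesterase typical of cDC1, stood at 658, 801, 888, 765 and 923 CPM against 284, 209, 235, 211 and 363 CPM. For Cadm1, an adhesion molecule of cDC1, the levels were 73.4, 116, 219, 146 and 279 CPM against 28.1, 19.1, 23, 46.8 and 134 CPM. In all 5 libraries each of the 3 genes was higher with both rule genes, and for Irf8 and Ppt1 the lowest library with both genes lay above the highest with Clec9a alone. Itgae, the CD103 integrin chain, and Cd24a, a surface glycoprotein of cDC1, were also higher with both genes in every library. In combination Itgae stood at 197 against 4.68 CPM.

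Interferon and monocyte-associated genes showed the reverse. Ifitm3, an antiviral membrane protein, stood at 1239.5, 1218, 260.3, 570.1 and 360.2 CPM with both rule genes and at 3528, 5882, 2778, 3509 and 2615 CPM with Clec9a alone. Gbp2 stood at 69.9, 77.7, 37.6, 77.3 and 4.05 CPM against 227, 787, 571, 547 and 363 CPM, and Isg15 at 195, 195, 21.5, 115 and 36.4 CPM against 549, 1209, 516, 407 and 859 CPM. Each was higher with Clec9a alone in all 5 libraries. The monocyte surface gene Ly6c2 followed them, at 45.4, 76.7, 25.5, 17.7 and 36.4 CPM against 199, 488, 170.5, 318 and 57.3 CPM. Because the share of Clec9a-only members differed between libraries, the main lists and many single genes are given below over all members and again over members with both genes.

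**Figure D1:**
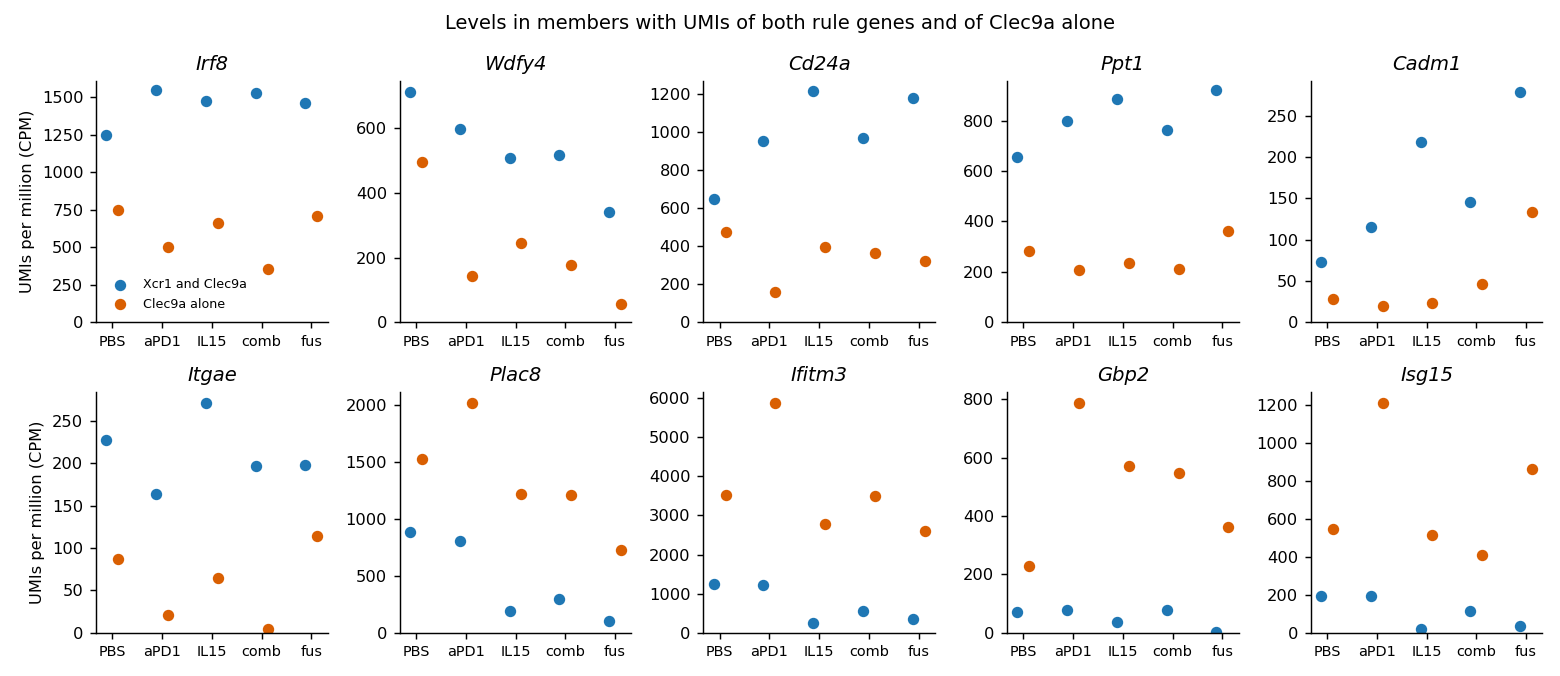
Levels of 10 genes in CPM (vertical axes from 0) in the libraries, where aPD1 is anti-PD1, IL15 the superagonist, comb the combination and fus the fusion. Blue points are members with UMIs of both Xcr1 and Clec9a and orange points members with Clec9a alone, 1 point per library. Irf8, Wdfy4, Cd24a, Ppt1, Cadm1 and Itgae lay higher in blue in every library, and Plac8, Ifitm3, Gbp2 and Isg15 higher in orange.

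By the rule at full depth, the share of cDC1 in the sorted cells was lower in each library that received IL15 in some form. With the rule applied at an equal depth of 1500 UMIs the IL15 superagonist share was near that of PBS. A minimum of 2 UMIs out of 1500 asks for a higher level of the rule genes, so the 2 shares count different sets of cells. Of kept barcodes PBS held 2.12% members (1.77 to 2.52) and anti-PD1 1.93% (1.63 to 2.28), by exact Clopper-Pearson intervals. The IL15 superagonist share was 1.05% (0.817 to 1.32), that of combination 0.636% (0.478 to 0.829) and that of fusion 0.370% (0.253 to 0.521). Against PBS the share was 2.02-fold lower (1.5 to 2.75) with IL15 superagonist, 3.33-fold lower (2.41 to 4.67) with the combination and 5.73-fold lower (3.86 to 8.74) with the fusion. With the rule applied after thinning every barcode to 1500 UMIs the ratios to PBS were 0.955 for IL15 superagonist, near equal, 0.363 for the combination and 0.356 for the fusion, from 27 members in PBS and 29, 14 and 14 in these libraries. Anti-PD1 held 26 members at that depth, and its share lay below that of IL15 superagonist. PBS held 126 and IL15 superagonist 70 members at full depth, with medians of 4 and 7 UMIs of the rule pair. No interval was set on the ratios at 1500 UMIs, and the part of rule-gene level in them was not tested. At full depth the interval of anti-PD1 against PBS, a ratio of 0.912 (0.712 to 1.17), included equal shares.

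Shares of a whole depend on the other cells, and T cells by the Cd3 gate made up 24.6%, 23.7%, 43.0%, 51.4% and 77.5% of kept barcodes. Among barcodes without UMIs of the T, NK and B cell genes of the rule (3607, 4432, 2061, 2444 and 737), members made up 3.49%, 3.18%, 3.4%, 2.21% and 4.34%. On this base anti-PD1 had a ratio to PBS of 0.911 (0.711 to 1.17), IL15 superagonist one of 0.972 (0.715 to 1.31) and fusion one of 1.24 (0.816 to 1.84), all including equal shares. Only combination stayed lower by its interval, at 1.58-fold (1.14 to 2.22). Fusion exceeded combination by 1.97-fold (1.23 to 3.10) on this base, although it was 1.72-fold lower (1.09 to 2.75) among all kept barcodes. Without members that held at least 3 UMIs over at least 2 genes of the monocyte, neutrophil, NK, B or plasmacytoid markers, 41, 35, 39, 26 and 30 members were left, and the ratios to PBS among all kept barcodes were 0.696 for anti-PD1, 0.846 for IL15 superagonist, 0.444 for the combination and 0.502 for the fusion. The step down from PBS was thus smaller for the libraries with IL15 once these members were left out. With both rule genes the ratios were 0.762, 0.577, 0.291 and 0.223. Numbers of cDC1 per tumor were not measured, so fewer cDC1 and more of other cells cannot be told apart.

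**Figure D2:**
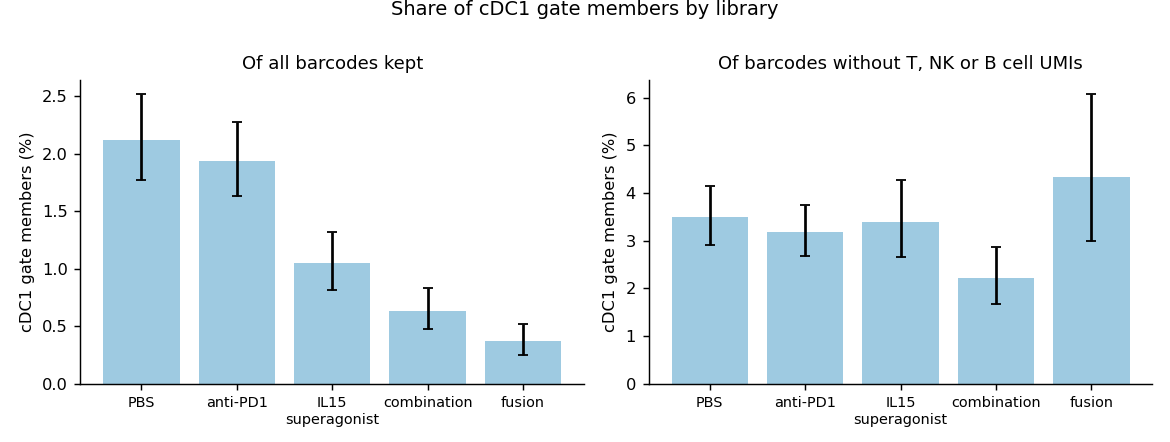
Members of the cDC1 gate as a percentage of all barcodes kept (left) and of barcodes without UMIs of T, NK or B cell genes (right), 1 bar per library with exact Clopper-Pearson 95% intervals. The bars on the left go down from 2.12% in PBS to 0.370% in fusion, whereas on the right fusion has the highest bar, at 4.34%.

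Other dendritic cells did not keep step with cDC1. Gates on the same principle gave 162, 120, 52, 79 and 8 cDC2-like barcodes (Cd209a at least 2 UMIs), 115, 41, 26, 14 and 6 mature dendritic cell-like barcodes (Fscn1 at least 2 and Ccr7 at least 1), and 48, 23, 10, 28 and 3 plasmacytoid-like barcodes (Siglech at least 2). There were 0.778, 1.18, 1.35, 0.684 and 4 cDC1 per cDC2-like barcode, with an interval of 1.81 to 10.05 for the fusion value. Per mature dendritic cell-like barcode there were 1.10, 3.44, 2.69, 3.86 and 5.33, so PBS was lowest and its interval (0.844 to 1.42) overlapped none of the others. The gates share the limit that a weakly expressing cell is missed.

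Within the libraries with at least 25 barcodes in both gates, cDC1 differed from cDC2-like cells in 4 of 4 libraries by at least 1.5-fold in 1 direction for part of the genes: of 3633 measured, 189 were higher and 244 lower. These contrasts describe gates that were set by expression. Il12b, the shared p40 subunit of interleukins 12 and 23, stood at 133, 86.3, 239.6 and 236 CPM in cDC1 and 0, 1.999, 0 and 7.46 CPM in cDC2-like cells of the first 4 libraries. Only 6 to 11 members of these libraries held any Il12b, and 58.5 to 83.7% of its UMIs came from 1 member. Cadm1 was 14.2- to 26.1-fold higher in cDC1, Cd36, a scavenger receptor, 11.8- to 28.9-fold, and Ly75, the endocytic receptor DEC-205, 9.59- to 26-fold. On the other side Cxcl10 was 7.95- to 23.8-fold lower in cDC1, at 159, 256, 26.3 and 198 CPM against 1566, 2038, 624 and 1607 CPM, and the lectin Clec10a was 6.4- to 21.1-fold lower. Tnfsf9, the ligand of the costimulatory receptor 4-1BB, was 4.54- to 5.36-fold lower.

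The mature dendritic cell-like gate differed far more. Of 3457 genes measured in PBS, anti-PD1 and IL15 superagonist, 785 were higher and 455 lower in cDC1 in all 3. Naaa was 26.5- to 399-fold higher in cDC1, while Cd63, a tetraspanin of late endosomes, was 117- to 276-fold lower and Il4i1, an amino acid oxidase, 81.3- to 255-fold lower. With plasmacytoid-like cells the comparison could be made in PBS and combination, where 482 of 2785 genes were higher in cDC1 in both and 499 lower. Naaa, Il1b and Plbd1 led the genes higher in cDC1, and Ly6d, Cox6a2 and Atp1b1 those lower.

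Plac8, a small cysteine-rich protein also expressed by monocytes and plasmacytoid cells, divided the libraries into high and low. Its level over all members was 1105, 1319.5, 424, 638 and 214 CPM. At an equal depth of 1500 UMIs per member, 67.5% (58.5 to 75.5), 68.8% (60.5 to 76.3), 25.7% (16.0 to 37.6), 40.7% (27.6 to 55.0) and 9.38% (1.98 to 25.02) of members had a Plac8 UMI. Without thinning the shares were 88.9%, 86.5%, 55.7%, 63.0% and 25%. PBS and anti-PD1 were high with overlapping intervals, and the intervals of the 3 libraries with IL15 lay below both. T cells of the same libraries, held a Plac8 UMI in 44.3%, 39.5%, 45.2%, 50.02% and 53.0% at that depth, with fusion highest. Among members with both rule genes the Plac8 level was 882, 811, 195, 294 and 105 CPM, with PBS and anti-PD1 again above the 3 other libraries. In cDC2-like cells Plac8 stood at 2095, 2381, 879 and 1262 CPM in the first 4 libraries, also lower in both with IL15.

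Members with a Plac8 UMI at that depth differed from the others in Cadm1, Serpinb6b and Ifitm3. Their Cadm1 level was 31.1, 38.6, 9.73, 42.7 and 90.1 CPM, against 111, 147, 214, 171 and 274 CPM in members without one, lower in all 5 libraries. Serpinb6b, an intracellular inhibitor of granzymes, stood at 62.2, 90.4, 53.5, 7.77 and 120.2 CPM with Plac8 and 121, 208, 258, 233 and 515 CPM without. Ifitm3 showed the opposite, at 2743, 3914, 2496, 2907 and 1142 CPM with and 683, 1785, 367, 762 and 706 CPM without. In fusion only 3 members had Plac8, so its values with Plac8 rest on 3 cells.

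Interleukin 12 transcripts came from a handful of members. Il12b stood at 133, 86.3, 239.6, 236 and 157 CPM, from 172, 144, 237, 164 and 47 UMIs, yet only 6, 7, 11, 8 and 2 members held any and 4, 5, 6, 6 and 1 held at least 3. The single highest member held 144, 86, 173, 96 and 46 UMIs, which were 83.7, 59.7, 73, 58.5 and 97.9% of the library's total. Levels of Il12b over the members therefore say how strongly 1 or a few cells expressed it, and no difference between libraries is drawn from them. Share of members with at least 3 UMIs was 3.17, 3.55, 8.57, 11.1 and 3.12%. Ccr7, the receptor that guides dendritic cells to lymph nodes, was found in 3, 3, 1, 2 and 1 of these carriers, with 52, 102, 64, 150 and 53 UMIs in sum, so most carriers in IL15 superagonist and in the combination held none.

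**Figure D3:**
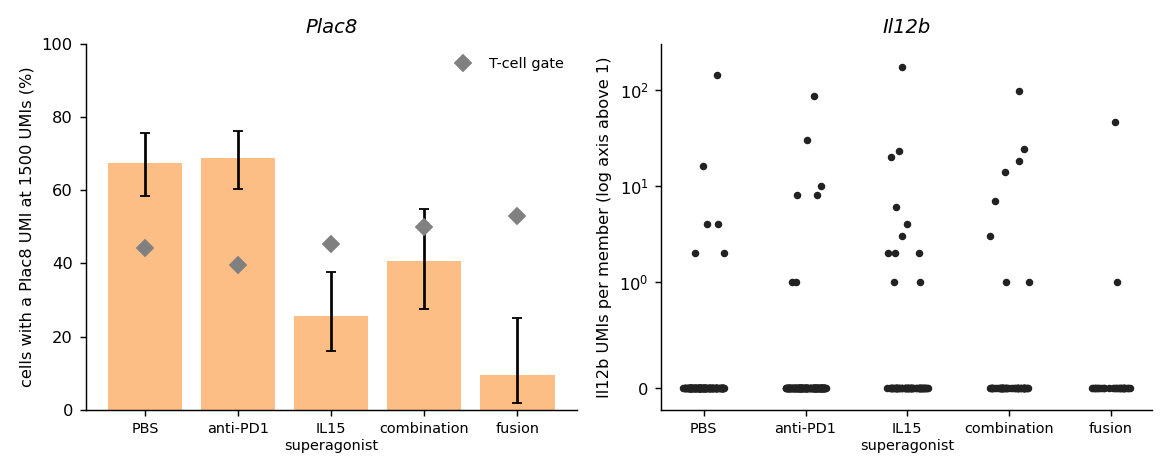
Left, percentage of members with a Plac8 UMI after thinning each to 1500 UMIs, with exact 95% intervals, and the same for T cells (grey diamonds). Right, Il12b UMIs of each member (points, log axis above 1). Bars go from 67.5% in PBS and 68.8% in anti-PD1 to 9.38% in fusion, and in each library most members sit at 0 for Il12b with 1 member far above.

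With anti-PD1 alone, interferon-response, chemokine and glycolytic genes were higher over the cDC1 gate than with PBS. In members with both rule genes the interferon lists were closer to PBS, and the chemokines Ccl5 and Cxcl10 lay below it. A gene is called here when it was at least 1.5-fold apart with at least 40 UMIs over both libraries. Of 5955 genes measured 20.6% were called, 11.8% higher and 8.78% lower, and the 4 comparisons with PBS share that library. Scaling to totals without mitochondrial and ribosomal protein genes moved the part of called genes that were higher from 57.4% to 45.0%. Of the 4583 genes measured over members with both rule genes 18.3% were called, 9.23% higher and 9.1% lower. Over all members, 12 of 17 measured members of the chemokine list were higher and 1 lower.

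Of the interferon-gamma list 23 of 32 measured members were higher and 0 lower, their median log2 ratio being 0.99, against 0.03 over all genes. Gbp2 stood at 121, 367, 155, 277 and 66.8 CPM and was 3.03-fold higher (2.54 to 3.63) in anti-PD1. Anti-PD1 had the highest level among the 5 libraries. Among members with both rule genes the list had 4 of 22 higher and 1 lower, with a median of 0.19. Over all members but those left out, the median was 0.67 without members holding other-lineage markers, 0.50 without Plac8 and 0.47 with the rule applied at 1500 UMIs. With both genes Gbp2 was 1.11-fold the PBS level. Irf1 was 2.03-fold higher (1.66 to 2.49) over all members and 1.58-fold higher (1.2 to 2.09) over those with both genes.

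The type I interferon list split in the same way. Over all members 18 of 30 measured members were higher and 1 lower, with a median of 0.76, and over members with both genes the counts were 1 of 16 higher and 2 lower, with a median of -0.01. Isg15 stood at 309, 615, 131, 256 and 180.3 CPM over all members and at 195, 195, 21.5, 115 and 36.4 CPM with both genes. It was 1.99-fold higher (1.77 to 2.24) in anti-PD1 than in PBS in the first set and 1.004-fold in the second. Ifitm1 kept its direction, at 2.15-fold higher (2.0 to 2.3) and 2.04-fold higher (1.73 to 2.42). In cDC2-like cells of the same libraries Isg15 was 1.55-fold and Gbp2 1.8-fold the PBS level.

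**Figure D4:**
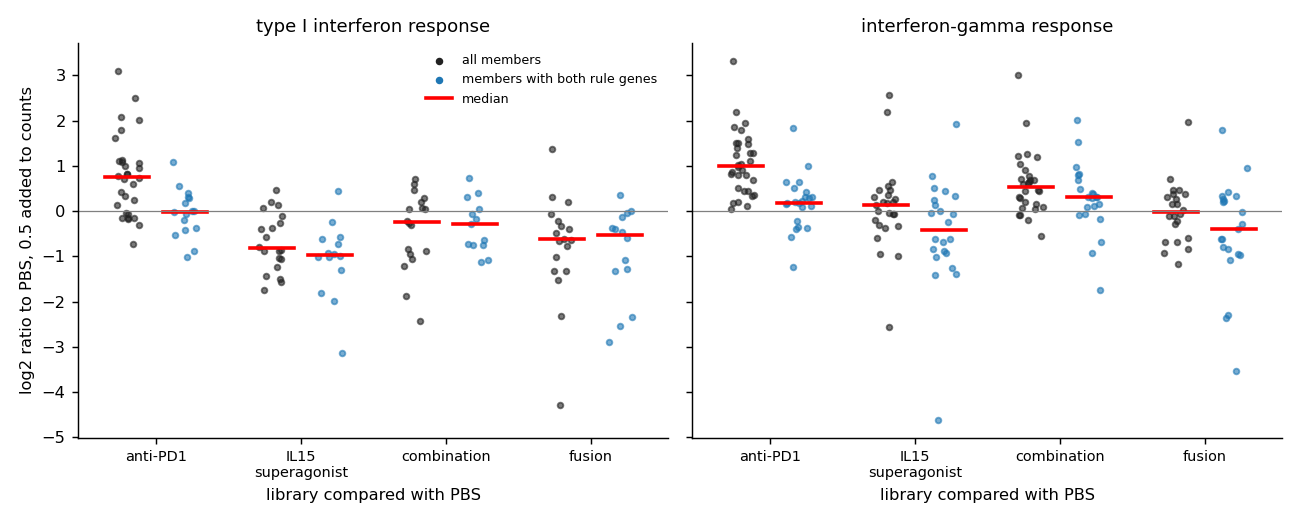
log2 ratio to PBS of each measured gene of the type I interferon (left) and interferon-gamma (right) lists, with 0.5 added to counts, for the 4 treated libraries. Black points are all members, blue points members with both rule genes, and red bars medians. In anti-PD1 the black medians are 0.76 and 0.99 and the blue ones -0.01 and 0.19.

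Some genes differed in both sets of members. Serpina3g, a serine protease inhibitor induced by interferon-gamma, stood at 73.2, 255, 337, 283 and 287 CPM, lowest in PBS, and was 3.49-fold higher (2.78 to 4.4) in anti-PD1 (3.59-fold with both genes). Aldoa, a glycolytic enzyme, stood at 284, 703, 699.6, 767 and 1115 CPM and was 2.47-fold higher (2.2 to 2.79) (2.02-fold with both genes). Of the glycolysis list 9 of 17 measured members were higher and 0 lower, and with both genes 8 of 16 higher and 2 lower. Aldoa was also lowest in PBS among cDC2-like cells, at 304, 695, 708 and 751 CPM in the first 4 libraries, and T cells, at 496, 1076, 896, 917 and 1596 CPM. Klf2, a transcription factor of quiescence and migration, stood at 248, 494, 449, 306 and 821 CPM and was 1.99-fold higher (1.75 to 2.27).

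Flt3 and Csf2rb were lower, although of the cytokine and growth factor receptor list 5 of 20 measured members were higher and 2 lower. Flt3 stood at 214, 108, 115, 131 and 110.2 CPM and was 1.97-fold lower (1.63 to 2.39) in anti-PD1 than in PBS, and 1.52-fold lower with both rule genes. Csf2rb, the shared receptor chain for GM-CSF and interleukins 3 and 5, stood at 523, 340.4, 227, 388 and 301 CPM and was 1.54-fold lower (1.37 to 1.72), or 1.69-fold with both genes. Hspa1a, an inducible chaperone, stood at 228, 128, 16.2, 38.8 and 10.02 CPM and was 1.78-fold lower (1.49 to 2.13), or 2.81-fold with both genes. PBS had the highest level of all 3 genes. Of the heat shock list 0 of 14 measured members were higher and 4 lower. Its median log2 ratio was 0.034, beside 0.025 over all genes, so the list as a whole was not lower. Wdfy4 was 1.56-fold lower (1.4 to 1.72) over all members and 1.19-fold lower with both genes, which is under the 1.5-fold size, and with the rule applied at 1500 UMIs it was 1.16 times the PBS level. Of the genes farthest from equal, all 326 anti-PD1 UMIs of Cxcl3 came from 1 member, and so did the 42 of S100a8 and the 43 of S100a9.

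With the IL15 superagonist alone, cDC1 had lower type I interferon and DNA replication genes than with PBS, and lower Hspa1a. Over all members chemokine genes were lower on balance too, but not without the members that held other-lineage markers. Granzyme inhibitors and Cadm1 were higher. Of 5168 genes measured 26.9% were called, 12.3% higher and 14.6% lower, and the part of called genes that were higher moved from 45.7% to 35.2% under totals without mitochondrial and ribosomal protein genes. Of the 4141 genes measured over members with both rule genes 28.1% were called, 13.1% higher and 15% lower. Of the called genes 1004 were measured with both rule genes too, and 847 of these were called the same way there.

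Of the type I interferon list 0 of 20 measured members were higher and 11 lower, with a median of -0.82 against 0.01 over all genes, and with both rule genes 0 of 14 higher and 12 lower, with a median of -0.97. Ifitm3 stood at 2009.8, 3140.1, 809.8, 1555 and 755 CPM and was 2.48-fold lower (2.29 to 2.69) in IL15 superagonist. Isg15 was 2.35-fold lower (1.93 to 2.89) over all members and 9.06-fold lower (5.42 to 16.2) with both genes. The IL15 superagonist library had the lowest Isg15 of the 5 in both sets. Of the interferon-gamma list 3 of 25 measured members were higher and 4 lower, whereas with both genes 2 of 22 higher and 11 lower, and the median turned from 0.14 to -0.42. Serpina3g of that list was 4.6-fold higher (3.65 to 5.84), against the list's direction among members with both genes.

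Replication genes were lower in both sets. Of 17 measured genes of the list, such as the helicase subunits Mcm3 and Mcm7 and the clamp Pcna, 11 were lower and 0 higher, and with both rule genes 13 of 15 were lower. Pcna stood at 114, 81.5, 53.6, 58.9 and 73.5 CPM and was 2.13-fold lower (1.55 to 2.97). Of the mitosis list 8 of 22 measured members were higher and 2 lower, and with both genes 4 of 19 higher and 4 lower, so the cell-cycle lists did not go the same way. Mki67, a marker of cycling cells, stood at 60.1, 54.5, 80.9, 48.9 and 110.2 CPM, from 78, 91, 80, 34 and 33 UMIs.

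Serpinb6b stood at 83.3, 133, 215, 149 and 471 CPM and was 2.59-fold higher (2.04 to 3.29) in IL15 superagonist than in PBS. Serpinb9 stood at 65.5, 126, 138, 148 and 374 CPM and was 2.11-fold higher (1.6 to 2.8). Cadm1 stood at 59.4, 77.9, 172, 124 and 254 CPM and was 2.9-fold higher (2.2 to 3.84). Each was lowest in PBS and highest in fusion, and with both rule genes the IL15 superagonist ratios were 2.66, 1.64 and 2.98. Whamm, which promotes actin assembly on membranes, followed at 35.5, 31.2, 109, 67.5 and 217 CPM and was 3.08-fold higher (2.16 to 4.45). On the lower side Hspa1a was 14.1-fold lower (8.54 to 25), and Csf2rb was 2.3-fold lower (1.97 to 2.68), and with both rule genes they were 26.3- and 2.25-fold lower. Of the heat shock list 1 of 14 measured members were higher and 5 lower, with a median of -0.15, so most of the list was not called.

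**Figure D5:**
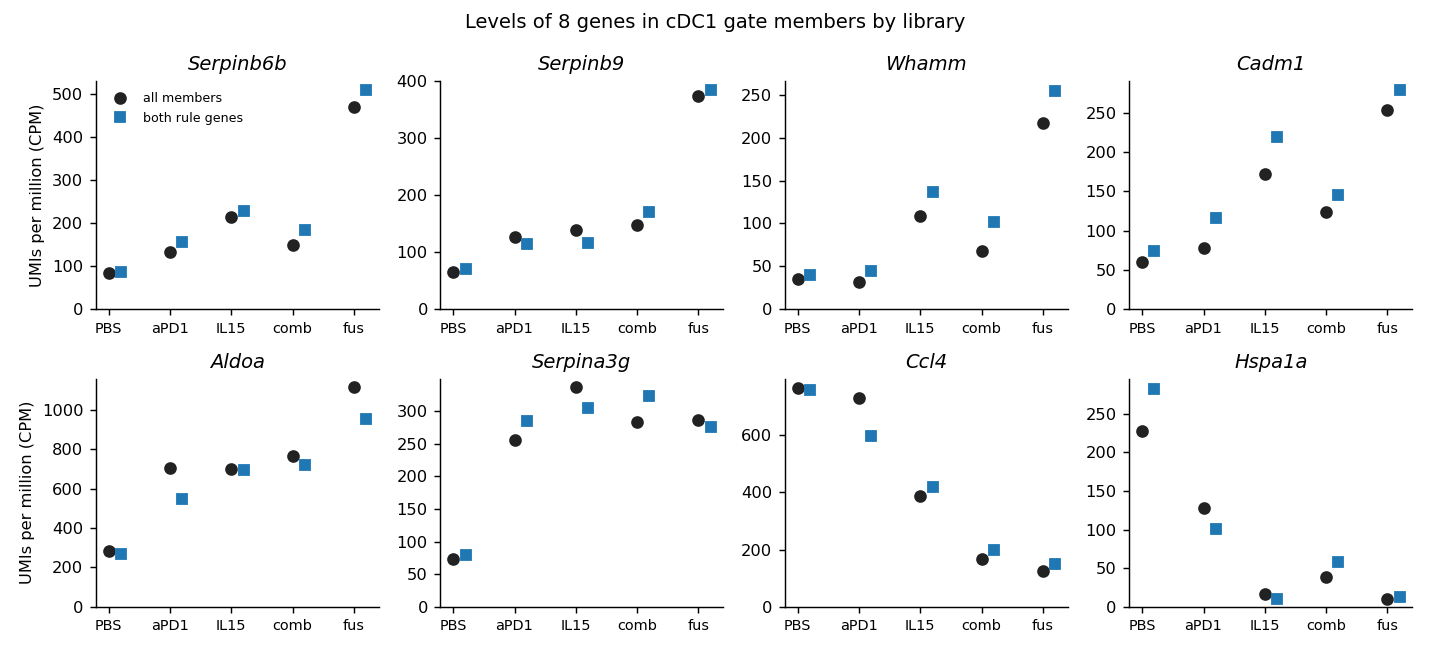
Levels of 8 genes in cDC1 gate members in CPM (vertical axes from 0) by library, where aPD1 is anti-PD1, IL15 the superagonist, comb the combination and fus the fusion. Black circles are all members and blue squares members with both rule genes. Serpinb6b, Serpinb9, Whamm, Cadm1 and Aldoa are highest in fusion in both sets, and Hspa1a is highest in PBS.

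Chemokines with receptors on T cells and monocytes were lower too. Of the chemokine list 3 of 15 measured members were higher and 9 lower, and with both rule genes 1 of 9 higher and 6 lower. The median was -0.99 over all members, but 0.35 without the members that held other-lineage markers, so its direction depended on those members. Ccl4, an inflammatory chemokine, stood at 766, 729, 386, 167 and 127 CPM and was 1.98-fold lower (1.76 to 2.24), and in cDC2-like cells of the first 4 libraries it stood at 612, 1041, 127 and 111 CPM. Cxcl10 stood at 159, 256, 26.3, 198 and 96.8 CPM and was 6.04-fold lower (4.01 to 9.47). Cxcl9 stood at 381, 694, 363, 611 and 384 CPM, with a ratio to PBS of 0.953, an interval (0.83 to 1.09) that included equal levels. Il1b, the inflammatory cytokine interleukin 1 beta, stood at 1376, 2058, 767, 1937 and 274 CPM and was 1.79-fold lower (1.65 to 1.95).

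In the combination interferon-gamma response genes were higher than in PBS and type I genes lower on balance. Against PBS 25.1% of 4779 genes were called, 12% higher and 13.1% lower, and the part of called genes that were higher moved from 47.7% to 34.5% under totals without mitochondrial and ribosomal protein genes. Of the 3651 genes measured over members with both rule genes 25.5% were called, 12% higher and 13.6% lower. Of the interferon-gamma list 14 of 28 measured members were higher and 0 lower, with a median of 0.52, and with both rule genes 6 of 22 higher and 3 lower, with a median of 0.31. Of the type I list 2 of 18 measured members were higher and 7 lower, with a median of -0.24 (-0.28 with both genes, and 0.28 among members without Plac8). Gbp2 was 2.29-fold higher (1.85 to 2.85) over all members and 1.11-fold with both genes. Cxcl9 was 1.6-fold higher (1.41 to 1.83) and kept this with both genes, at 1.62-fold higher (1.35 to 1.94).

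Genes that differed in both sets included Serpina3g, 3.87-fold higher (3.01 to 4.99) in the combination, Aldoa, 2.7-fold higher (2.36 to 3.09), and Serpinb9, 2.26-fold higher (1.68 to 3.05). Lower were Ccl4, by 4.59-fold (3.81-fold with both rule genes), Hspa1a, by 5.88-fold, and Plac8, by 1.73-fold. Ccl3, a related chemokine, had 74, 205, 22, 0 and 0 UMIs. Against a floor of 3 counts in the combination it was at least 13.2-fold lower than in PBS. Of the replication list 2 of 16 measured members were higher and 8 lower, and with both genes 0 of 15 higher and 10 lower.

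Set against anti-PD1 alone, the combination was lower for interferon and chemokine genes over all members. Of 5312 genes 15.2% were called, 4.76% higher and 10.4% lower. Of the 3861 genes measured over members with both rule genes 14.3% were called, 5.49% higher and 8.81% lower. Of the type I list 0 of 27 measured members were higher and 23 lower, with a median of -1.03, and with both rule genes 0 of 13 higher and 4 lower, with a median of -0.25. Of the interferon-gamma list 0 of 32 measured members were higher and 12 lower, with medians of -0.38 and 0.07. Ccl4 was 4.38-fold lower (3.61 to 5.34), and Lmna, the nuclear lamin A, at 90.2, 71.9, 216, 151 and 227 CPM, was 2.1-fold higher (1.6 to 2.75).

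Set against the IL15 superagonist alone, the combination was higher for interferon genes. Of 4262 genes 13.2% were called, 6.99% higher and 6.17% lower. Of the 3350 genes measured over members with both rule genes 13.4% were called, 6.51% higher and 6.9% lower. Of the interferon-gamma list 9 of 24 measured members were higher and 0 lower, and with both rule genes 7 of 21 higher and 0 lower, with medians of 0.42 and 0.45. Of the type I list 4 of 14 measured members were higher and 0 lower, and with both genes 6 of 12 higher and 0 lower. Ifitm1 stood at 818, 1755, 210.3, 855 and 942 CPM and was 4.07-fold higher (3.47 to 4.78). Isg15 was 1.95-fold higher (1.54 to 2.46), but 0.92 times the IL15 superagonist level without members holding other-lineage markers. Csf2rb was 1.71-fold higher (1.42 to 2.04), or 1.59-fold with both genes, while Ccl4 was 2.32-fold lower (1.88 to 2.88). Of the chemokine list 6 of 11 measured members were higher and 3 lower, and its median turned from 0.64 to -0.60 without members holding other-lineage markers. The combination and IL15 superagonist libraries each enter other comparisons here, so these values are not independent of them.

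Between the single agents, IL15 superagonist against anti-PD1, 20.1% of 5600 genes were called, 6.54% higher and 13.5% lower. Of the 4328 genes measured over members with both rule genes 16.2% were called, 6.03% higher and 10.1% lower. Of the type I list 0 of 26 measured members were higher and 24 lower, and with both rule genes 0 of 14 higher and 9 lower. For the interferon-gamma list 0 of 31 measured members were higher and 22 lower, and with both genes 1 of 23 higher and 9 lower. Whamm was 3.5-fold higher (2.49 to 4.98) and Lmna 3.01-fold higher (2.39 to 3.79) in IL15 superagonist. Ifitm1 was 8.35-fold lower (7.25 to 9.65). Of the chemokine list 2 of 17 measured members were higher and 13 lower.

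The fusion library held the fewest members and the largest part of genes called against PBS. Of 4208 genes 38.4% were called, 16.8% higher and 21.6% lower, and the part of called genes that were higher moved from 43.7% to 33.3% under totals without mitochondrial and ribosomal protein genes. When the size had to be met and the interval to exclude equal levels, 1001 genes were called in place of 1617. Of the 3259 genes measured over members with both rule genes 38.2% were called, 17.7% higher and 20.5% lower. Granzyme inhibitors were among the higher genes. Serpinb6b was 5.65-fold higher (4.37 to 7.33) and Serpinb9 5.71-fold higher (4.27 to 7.66), with 5.91 and 5.41 over members with both rule genes. Serpinb9 UMIs were found in 32, 65, 34, 24 and 24 members and Serpinb6b UMIs in 31, 54, 38, 20 and 23, that is in most fusion members.

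T cells express both inhibitors, and the fusion library had the largest T-cell share. Serpinb9 in T cells stood at 225, 313, 474, 421 and 429 CPM and Serpinb6b at 236, 426, 467, 414 and 379 CPM. In fusion the level in members was 87.1% of the T-cell level for Serpinb9 and 124% for Serpinb6b. For Trbc2, Cd8b1, Nkg7, Prf1, Gzma, Gzmb, Gzmc and Gzmf that percentage lay between 0 and 2.12% in fusion. In cDC2-like cells Serpinb9 stood at 48.2, 29, 48.2 and 54.7 CPM in the first 4 libraries. The tumor-cell markers Mlana, Pmel, Dct, Tyrp1 and Tyr summed to 3.08, 4.79, 6.07, 1.44 and 40.1 CPM, highest in fusion members. The part of free T-cell or tumor RNA in these values was not tested.

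Among the other genes higher in fusion, Whamm was 6.12-fold higher (4.13 to 9.13), and Actn1, an actin crosslinker, at 23.1, 44.9, 78.9, 67.5 and 144 CPM, was 6.21-fold higher (3.81 to 10.2). Sirt2, a tubulin and histone deacetylase, stood at 57, 83.3, 139.5, 90.5 and 250.4 CPM and was 4.39-fold higher (3.14 to 6.14). Lipa, the lysosomal lipase, stood at 27.8, 37.2, 42.5, 40.2 and 137 CPM and was 4.93-fold higher (3.08 to 7.94). Fusion had the highest level of each of the 4 genes, and with both rule genes the ratios were 6.44, 5.21, 4.33 and 5.62. Klf2 was 3.31-fold higher (2.79 to 3.92), whereas in T cells Klf2 was lowest in fusion, at 95.2, 214, 223, 165 and 55.7 CPM. Cadm1 was 4.28-fold higher (3.07 to 5.95), and Wdfy4 2.19-fold lower (1.75 to 2.76), so 2 markers of the lineage went opposite ways. Mgl2 stood at 27.8, 67.1, 63.7, 101 and 177 CPM (under 40 UMIs over both libraries with both rule genes, so not measured there), 6.38-fold higher (4.1 to 10.02) in fusion, where 12 members held it and the highest had 54.7% of its UMIs.

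On the lower side of fusion vs PBS were inflammatory, sterol and interferon genes. Il1b was 5.03-fold lower (4.03 to 6.35) and with both rule genes 9.39-fold lower (6.68 to 13.6), and it was lower in fusion T cells too. Ccl4 was 6.03-fold lower (4.36 to 8.58), Plac8 5.17-fold lower (4.02 to 6.75) and Hspa1a 22.8-fold lower (7.72 to 111), the last from 3 UMIs in fusion. Of the lipid and cholesterol list 0 of 15 measured members were higher and 9 lower, with a median of -0.77, and with both genes 0 of 13 higher and 7 lower. Of the immediate early list 1 of 22 measured members were higher and 10 lower, and of the type I interferon list 1 of 18 measured members were higher and 10 lower, with a median of -0.62 (-0.53 with both genes). Among members without Plac8 the type I median was 0.01. The interferon-gamma list had a median of -0.03 over all members and -0.40 with both genes.

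Fusion against combination compared anti-PD1 and IL15 activity joined in 1 protein with the agents given together. Of 3025 genes 22.4% were called, 9.19% higher and 13.2% lower. Of the 2252 genes measured over members with both rule genes 19.9% were called, 9.19% higher and 10.7% lower. Serpinb6b was 3.15-fold higher (2.43 to 4.1), Serpinb9 2.53-fold higher (1.92 to 3.33), and Whamm 3.21-fold higher (2.17 to 4.78) in fusion. For Klf2 it was 2.68-fold higher (2.22 to 3.24). With both rule genes the ratios were 2.78, 2.26, 2.51 and 2.54. Il1b was 7.07-fold lower (5.66 to 8.95) and 7.29-fold lower with both genes, and Plac8 was 2.99-fold lower (2.29 to 3.94). For the interferon-gamma list 0 of 23 measured members were higher and 11 lower, and with both genes 0 of 16 higher and 5 lower. Serpina3g, high in all 4 treated libraries, had a ratio of 1.01 (0.778 to 1.31).

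Most antigen presentation genes lay within 1.5-fold of PBS. Cd74, the invariant chain of MHC class II, stood at 24915, 30220.1, 34850.2, 36038 and 36834 CPM, with ratios to PBS of 1.21, 1.4, 1.45 and 1.48. H2-Aa, a class II alpha chain, stood at 11199, 12245, 11442, 11789 and 11109 CPM. H2-K1, a classical class I heavy chain, stood at 1425, 2082, 1574, 1854 and 1716 CPM, and Tap1, a subunit of the peptide transporter, at 373, 475, 372, 398 and 414 CPM. None of these 4 reached 1.5-fold in any comparison with PBS. Psmb8, an immunoproteasome subunit, was 1.36-, 1.37-, 1.37- and 1.39-fold the PBS level. Of the class I list 4 of 21, 2 of 21, 3 of 21 and 2 of 20 measured members were higher in the treated libraries in turn, and 0, 1, 1 and 0 lower. Of 14 class II genes 3, 2, 2 and 1 were higher and 0, 2, 1 and 2 lower. Over all genes 11.8%, 12.3%, 12% and 16.8% were higher and 8.78%, 14.6%, 13.1% and 21.6% lower, so neither list is a result set apart from the general rate. With both rule genes 1 of 21, 1 of 20, 1 of 20 and 2 of 20 class I genes were higher and 0, 1, 0 and 1 lower. For class II it was 3 of 14, 3 of 14, 3 of 13 and 2 of 13 higher and 0, 1, 0 and 1 lower. H2-DMb2, which helps load class II peptides, was called higher in all 4, at 132, 229.5, 268, 266 and 337 CPM.

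Single costimulatory and mature-program genes gave values that depended on the set of members. Over all members, from anti-PD1 to fusion, 10 of 21, 4 of 21, 10 of 21 and 9 of 20 mature-program genes measured were higher. Those lower numbered 1, 2, 2 and 4. Of the costimulatory and inhibitory ligands 7 of 16, 1 of 15, 4 of 16 and 4 of 14 were higher. Of these ligands 0, 2, 2 and 4 were lower. Over all genes 11.8%, 12.3%, 12% and 16.8% were higher and 8.78%, 14.6%, 13.1% and 21.6% lower. Cd86, a ligand of CD28, stood at 169, 244, 237, 198 and 307 CPM and was 1.82-fold higher (1.41 to 2.33) in fusion and 1.44-fold in anti-PD1. Cd40 stood at 49.3, 116, 44.5, 80.5 and 30.1 CPM over all members and 46.6, 51.1, 22.8, 81.8 and 12.1 CPM with both rule genes, so its anti-PD1 level was above PBS in the first set by 2.36-fold and in the second by 1.1-fold. Cd274, which encodes the PD-1 ligand PD-L1, stood at 77.9, 136, 61.7, 67.5 and 50.1 CPM, highest in anti-PD1, but with both genes at 82.7, 62.4, 42.9, 50.8 and 40.5 CPM, highest in PBS. Ccr7 stood at 125, 208, 94, 228 and 257 CPM and with both genes at 112, 46, 12.1, 345 and 4.05 CPM, with no common order of the libraries. In combination 150 of its 159 UMIs came from 2 members. The level of Il15ra, which presents interleukin 15, rested on 7, 14, 6, 8 and 2 UMIs and that of Il15 on 6, 9, 9, 5 and 1, too few to compare.

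Most lineage genes outside the rule lay within 1.5-fold of PBS. Irf8 stood at 1078, 1115, 1300.1, 1132 and 1332 CPM and Batf3 at 167, 128, 141, 157 and 174 CPM, and neither was called against PBS in any library. Cd24a stood at 586, 625, 1021, 772 and 1032 CPM and was 1.74-fold higher (1.58 to 1.92) in IL15 superagonist and 1.76-fold higher (1.54 to 2.01) in fusion (1.88- and 1.83-fold with both rule genes). Itgae stood at 179, 104, 219, 131 and 184 CPM, lowest in anti-PD1, at 1.72-fold below PBS, but 1.39-fold below it with both rule genes, under the 1.5-fold size. Of the identity list outside the rule 0 of 22, 5 of 22, 1 of 22 and 6 of 21 measured members were higher in the 4 treated libraries in turn, and 4, 1, 1 and 2 lower. Over all genes 11.8%, 12.3%, 12% and 16.8% were higher and 8.78%, 14.6%, 13.1% and 21.6% lower. With both rule genes 3 of 22, 6 of 21, 4 of 22 and 5 of 20 of the list were higher and 1, 1, 0 and 3 lower. Members chosen by Xcr1 and Clec9a had to keep part of this program, so a cell that lost both genes is not seen here.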

How the data were processed

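Values are whole-number counts of UMIs per gene and barcode as deposited by the authors, made with Cell Ranger 2.1.1 on mm10 per the submitters' processing notes, from a 10x 5′ kit. From these counts the gate was applied, UMIs of the members were added up within each library and scaled to CPM with exact Poisson intervals, ratios with exact conditional intervals and shares with Clopper-Pearson intervals (95%). Genes were measured with at least 40 UMIs over both libraries and called at 1.5-fold, with a floor of 3 counts for a 0 and 0.5 added for log2. Sets under 25 barcodes were not compared. The members, lists and tests were chosen with earlier results of these data known. Genes were named as markers, from a list of fixed genes, or, per comparison, list and gate, as those whose interval lay farthest from equal levels. Ifitm3 and Psmb8 were chosen after their values were seen. No doublet caller was run, and the rule's exclusions are the sole guard. Calculations were tested on simulated data and used Python 3.11.15, numpy 2.4.6, scipy 1.17.1 and pandas 2.3.3. Alternatives changed the rule, depth, scaling, count minimum and members.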

Additional observations from a re-analysis of the deposited data

Results flagged for a closer look

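Opposite directions in cDC1 and cDC2-like cells of the same libraries were looked for among the fixed genes and the genes named for a comparison. A pair of gene and comparison needed at least 40 UMIs in each gate and ratios at least 1.5-fold apart in opposite ways. Both intervals also had to exclude equal levels. In all 14 pairs were found. The number of pairs looked at was not counted, so whether 14 is many or few cannot be said. The difference between the gates was not tested, each treatment has 1 library, and ratios are the first-named library to the second. Ccr7, the lymph node homing receptor, had a ratio of 1.66 in cDC1 and 0.633 in cDC2-like cells in anti-PD1 vs PBS. In IL15 superagonist vs PBS the ratio of Ccl5, a chemokine for T cells, was 0.233 in cDC1 against 10.4 in cDC2-like cells. Sirpa, a cDC2 surface receptor, had a ratio of 2.31 in cDC1 and 0.617 in cDC2-like cells in combination vs PBS. The cDC1 ratio of Sirpa (1.25 to 4.31) rested on only 26 and 21 UMIs. In combination vs PBS the ratio of Top2a, a mitotic topoisomerase, was 0.65 in cDC1 against 1.96 in cDC2-like cells. Ccl5 had a ratio of 0.442 in cDC1 and 3.36 in cDC2-like cells in combination vs anti-PD1. In combination vs IL15 superagonist the ratio of Plet1, a surface protein, was 0.54 in cDC1 against 2.27 in cDC2-like cells. Ccl5 had a ratio of 5.3 in cDC1 and 0.299 in cDC2-like cells in combination vs IL15 superagonist. In combination vs IL15 superagonist the ratio of Ccr7 was 2.43 in cDC1 against 0.547 in cDC2-like cells. Fcgr2b, an inhibitory Fc receptor, had a ratio of 0.457 in cDC1 and 1.59 in cDC2-like cells in IL15 superagonist vs anti-PD1. In IL15 superagonist vs anti-PD1 the ratio of Cxcl9, an interferon-gamma induced chemokine, was 0.523 in cDC1 against 1.63 in cDC2-like cells. Ccl5 had a ratio of 0.0834 in cDC1 and 11.2 in cDC2-like cells in IL15 superagonist vs anti-PD1. In IL15 superagonist vs anti-PD1 the ratio of Ccr7 was 0.452 in cDC1 against 2.48 in cDC2-like cells. Id2, a transcription factor of cDC1 development, had a ratio of 0.512 in cDC1 and 2.07 in cDC2-like cells in IL15 superagonist vs anti-PD1. In IL15 superagonist vs anti-PD1 the ratio of Csf1r, the receptor for M-CSF, was 0.511 in cDC1 against 1.51 in cDC2-like cells. The cDC1 ratio of Csf1r (0.294 to 0.854) rested on 20 and 66 UMIs. Ccl5 accounted for 4 of the pairs, and in PBS 62.1% of its UMIs in cDC1 came from 1 member. In cDC1 its ratio went to the cDC2-like side under some alternatives, at 4.46 in IL15 superagonist vs PBS without members holding other-lineage markers and, with both rule genes, at 3.42 in combination vs anti-PD1 and 1.97 in IL15 superagonist vs anti-PD1. With both rule genes Ccr7 in anti-PD1 vs PBS had a ratio of 0.411, the side it has in cDC2-like cells. In combination 150 of 159 Ccr7 UMIs in cDC1 came from 2 members, and in IL15 superagonist 64 of 93 came from 1. All of these members held at least 3 Il12b UMIs. Over the other cDC1 members Ccr7 stood at 15.3 CPM in combination and 32.6 CPM in IL15 superagonist, the side it has in cDC2-like cells.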

How the results depend on the processing

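Most recomputed gene values and list medians, 1966 and 1704, stayed within the limits set for a move. Another 331 gene values and 80 list medians moved, and 37 gene values and 11 list medians reversed. A list median was counted as reversed only if its main value was at least 1.5-fold in size. Smaller medians that changed sign are therefore not among the 11. Of the cDC1 shares and their ratios 22 values moved and 32 did not. A limit of 5% mitochondrial UMIs, median-of-ratios scaling and leaving out members on shared barcodes reversed none of the values recomputed. Leaving out the top member of each gene and the members with Plac8 were chosen after seeing the data. Causes of the differences were not tested.

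With at least 3 UMIs of the rule pair, the share was 1.56% for PBS, 1.34% for anti-PD1 and 0.459% for combination. Ratios on the other side of 1 were 0.796 for Cxcl10 in anti-PD1 vs PBS and 0.722 for Ccr7 in fusion vs PBS. With both rule genes required, the share was 1.3% for PBS, 0.987% for anti-PD1, 0.748% for IL15 superagonist and 0.377% for combination. Genes called numbered 448 in fusion vs combination and 699 in IL15 superagonist vs anti-PD1. Medians of log2 ratios were -0.0122 for type I interferon in anti-PD1 vs PBS, 0.19 for interferon-gamma in anti-PD1 vs PBS, -0.18 for cytokines in IL15 superagonist vs PBS, -0.42 for interferon-gamma in IL15 superagonist vs PBS, -1.02 for cytokines in fusion vs PBS and 0.37 for cytokines in IL15 superagonist vs anti-PD1. Ratios on the other side of 1 were 0.115 for Ccl5 in anti-PD1 vs PBS, 0.411 for Ccr7 in anti-PD1 vs PBS, 0.754 for Cd274 in anti-PD1 vs PBS, 0.421 for Cxcl10 in anti-PD1 vs PBS, 0.998 for Il2rg in anti-PD1 vs PBS, 0.76 for Cebpb in IL15 superagonist vs PBS, 0.413 for Il12b in IL15 superagonist vs PBS, 0.681 for Il2rg in IL15 superagonist vs PBS, 0.579 for Ccl22 in fusion vs PBS, 0.0362 for Ccr7 in fusion vs PBS, 0.851 for Cxcl16 in fusion vs PBS, 3.42 for Ccl5 in combination vs anti-PD1, 1.97 for Ccl5 in IL15 superagonist vs anti-PD1 and 0.364 for Hmox1 in IL15 superagonist vs anti-PD1. With the rule applied after thinning to 1500 UMIs, the share was 0.454% for PBS, 0.357% for anti-PD1, 0.434% for IL15 superagonist, 0.165% for combination and 0.162% for fusion. Its ratio to PBS was 0.955 under IL15 superagonist and 0.356 under fusion. Genes called numbered 52 in anti-PD1 vs PBS, 66 in IL15 superagonist vs PBS and 45 in IL15 superagonist vs anti-PD1. Medians of log2 ratios were 0.47 for interferon-gamma in anti-PD1 vs PBS. Ratios on the other side of 1 were 0.325 for Isg15 in anti-PD1 vs PBS, 1.16 for Wdfy4 in anti-PD1 vs PBS and 0.994 for Cd24a in IL15 superagonist vs anti-PD1. Without members holding other-lineage markers, the share was 0.69% for PBS, 0.48% for anti-PD1, 0.583% for IL15 superagonist and 0.306% for combination. Its ratio to PBS was 0.696 under anti-PD1, 0.846 under IL15 superagonist, 0.444 under combination and 0.502 under fusion. Genes called numbered 570 in anti-PD1 vs PBS, 820 in IL15 superagonist vs PBS, 651 in combination vs PBS, 782 in fusion vs PBS, 401 in combination vs anti-PD1, 352 in fusion vs combination and 557 in IL15 superagonist vs anti-PD1. Medians of log2 ratios were 0.25 for type I interferon in anti-PD1 vs PBS, 0.67 for interferon-gamma in anti-PD1 vs PBS, 0.35 for chemokines in IL15 superagonist vs PBS, 0.36 for chemokines in fusion vs PBS, -0.60 for chemokines in combination vs IL15 superagonist and 0.0876 for cytokines in IL15 superagonist vs anti-PD1. Ratios on the other side of 1 were 0.865 for Cd40 in anti-PD1 vs PBS, 5.5 for Il12b in anti-PD1 vs PBS, 0.875 for Isg15 in anti-PD1 vs PBS, 1.09 for Tlr3 in anti-PD1 vs PBS, 4.46 for Ccl5 in IL15 superagonist vs PBS, 0.986 for Anxa1 in combination vs anti-PD1, 0.965 for Ccl17 in combination vs anti-PD1, 0.92 for Isg15 in combination vs IL15 superagonist and 1.01 for Zbtb46 in combination vs IL15 superagonist. Among members without Plac8, genes called numbered 761 in anti-PD1 vs PBS, 712 in combination vs PBS, 781 in fusion vs PBS, 422 in combination vs anti-PD1, 449 in fusion vs combination and 724 in IL15 superagonist vs anti-PD1. Medians of log2 ratios were 0.50 for interferon-gamma in anti-PD1 vs PBS, -0.27 for interferon-gamma in IL15 superagonist vs PBS, 0.28 for type I interferon in combination vs PBS and 0.0102 for type I interferon in fusion vs PBS. Ratios on the other side of 1 were 0.834 for Il12b in IL15 superagonist vs PBS, 0.612 for Ccl22 in fusion vs PBS, 0.73 for Ccr7 in fusion vs PBS, 0.867 for Cxcl16 in fusion vs PBS and 1.0 for Isg15 in fusion vs PBS. With at least 20 UMIs over both libraries, genes called numbered 1904 in anti-PD1 vs PBS, 2206 in IL15 superagonist vs PBS, 2007 in combination vs PBS, 2630 in fusion vs PBS, 1494 in combination vs anti-PD1, 1246 in combination vs IL15 superagonist, 1442 in fusion vs combination and 1835 in IL15 superagonist vs anti-PD1. Medians of log2 ratios were -0.15 for cytokines in IL15 superagonist vs PBS. With at least 100 UMIs, genes called numbered 545 in anti-PD1 vs PBS, 585 in IL15 superagonist vs PBS, 511 in combination vs PBS, 666 in fusion vs PBS, 258 in combination vs anti-PD1, 152 in combination vs IL15 superagonist, 175 in fusion vs combination and 453 in IL15 superagonist vs anti-PD1. When the interval also had to exclude equal levels, genes called numbered 1001 in fusion vs PBS, 436 in combination vs anti-PD1, 314 in combination vs IL15 superagonist and 389 in fusion vs combination. With the mean of counts per 10000, ratios on the other side of 1 were 1.12 for Il12b in anti-PD1 vs PBS. Without the top member of each gene, medians of log2 ratios were -1.07 for cytokines in fusion vs PBS. Ratios on the other side of 1 were 1.6 for Il12b in anti-PD1 vs PBS, 0.917 for Ccr7 in fusion vs PBS and 0.745 for Hmox1 in IL15 superagonist vs anti-PD1.

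Thinning left 27, 26, 29, 14 and 14 members, so no comparison with combination or fusion was made under it. No paired analysis was possible because each treatment had 1 library, and no replicate could be left out. Depth limits fusion most, with 32 members.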
